A study of Mus musculus with 9 samples.

Results

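10 of the 14912 genes in the deposited table make up the set described here: the S100 proteins S100a4, S100a6, S100a10, S100a11 and S100a13, the annexins Anxa1, Anxa2 and Anxa6, and the galectins Lgals1 and Lgals3. They were picked by gene symbol, with earlier results of these libraries in view, so their levels are given as a description and carry no p-value. Of these 10 genes, 9 had enough signal to enter the fit over 10983 genes (at least 5 normalized counts in at least 3 of the 9 libraries), and Anxa1 did not. The libraries are bulk RNA of mouse CD4+ T cells made with a modified CEL-Seq protocol, which counts the 3′ ends of transcripts, so levels are compared between libraries for 1 gene and never between genes.

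All 9 libraries came from the strain B6.Cg-Foxp3tm2(EGFP)Tch/J, hemizygous for Foxp3 tm2Tch, an allele in which Foxp3, the master regulator of regulatory T cells (Tregs), is reported by eGFP; the starting cells carry it too. There were 3 groups of 3 libraries. The first held Foxp3 eGFP- CD4+ T cells at day 0, with no treatment. The second held eGFP+ cells at day 5 after culture with anti-CD3 and anti-CD28 (1 µg/ml of each), IL-2 at 300 U/ml and recombinant TGFβ at 10 ng/ml (TGFβ-iTreg, induced Tregs made with the classical cytokine). The third held eGFP+ cells at day 5 from a co-culture with murine colorectal cancer tumour organoids (mTO-iTreg), with IL-2 at 20 U/ml, the same antibodies at the same dose and no TGFβ listed. Both iTreg groups therefore differ from day 0 in time, activation and the eGFP gate at once, and from each other in IL-2 dose as well as in TGFβ and organoids; these cannot be told apart. The labels do not say whether libraries of a group come from separate animals or cultures, so the spread between them may be technical.

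S100 proteins are small calcium sensors of the EF-hand type that mostly work as dimers and dock onto other proteins, among them annexins. Annexins bind acidic phospholipids when calcium rises and link membranes to actin and to repair and secretion. Galectins are lectins for β-galactosides that leave cells without a signal peptide and cross-link glycoproteins at the T cell surface. In T cells, S100a4, S100a6, Anxa2 and Lgals1 are commonly used as signs of antigen-experienced rather than naive cells, and galectin-1 is known as an effector molecule of Tregs.

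The libraries held 2078223 to 9944952 counts each. The day 0 and TGFβ-iTreg groups held the 5 shallowest libraries, while the mTO-iTreg libraries held 7551177 to 7969853. Depending on the library, the scaling turned 1 count into 0.494 to 2.69 normalized counts. The mTO-iTreg libraries carry codes of another form than the other 6; whether they were prepared apart is not given, and such a difference could not be told apart from the group. The eGFP transcript was at 26.3 to 86.5 normalized counts at day 0, 588 to 695 in TGFβ-iTreg and 262 to 462 in mTO-iTreg. The eGFP- group was thus lowest, and the sort sets no order between the eGFP+ groups. The Foxp3 transcript was at 0 to 8.77 at day 0, 14.8 to 19.7 in TGFβ-iTreg and 37.2 to 81.0 in mTO-iTreg. Its order between the iTreg groups was the opposite of that of eGFP. Mitochondrial transcripts took 1.45 to 3.14% of counts at day 0, 1.66 to 2.21% in TGFβ-iTreg and 6.87 to 7.52% in mTO-iTreg. With libraries scaled to equal totals, the median gene lay 0.22 higher in log2 in TGFβ-iTreg than at day 0, against -0.02 in the deposited scaling, and the share of called genes that were higher went from 52.6 to 75.4%. In mTO-iTreg against day 0 the median went from 0.09 to 0.31 and the share from 57.1 to 70.4%.

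Markers of other cells moved with the groups, and their part in the values below was not tested. Myeloid markers (8 of 12 listed genes in the table) summed to 128, 137 and 415 normalized counts at day 0, 13.3 to 41.8 in TGFβ-iTreg and 9.3 to 47.1 in mTO-iTreg. Epithelial markers (9 of 18 in the table) summed to 18.8 to 26.4 at day 0, 139 to 150 in TGFβ-iTreg and 44.3 to 157 in mTO-iTreg. Epcam alone was at 74.1 to 113 in TGFβ-iTreg and 21.1 to 89.0 in mTO-iTreg, so it was also present where no organoids were. B cell and antigen-presenting markers (8 of 10 in the table) summed to 798 to 7360 at day 0, 227 to 521 in TGFβ-iTreg and 1908 to 3049 in mTO-iTreg. Cytotoxic and NK markers (5 of 6 in the table) summed to 331 to 668 at day 0, 176 to 251 in TGFβ-iTreg and 97.6 to 134 in mTO-iTreg, so that they were lowest in mTO-iTreg, as were S100a4 and S100a6. Klrd1, an NK receptor chain, had means of 360, 77.8 and 3.72 in the 3 groups. Klrb1c (28.9, 1.13 and 0) and Klrk1 (19.7, 1.65 and 2.21) were also highest at day 0. In contrast, Cd8b1 was lowest in TGFβ-iTreg (116, 77.6 and 97.0), and Cd8a was highest there (17.4, 54.5 and 14.9). Stromal and endothelial markers (6 of 10 in the table) summed to 648 to 956, 368 to 462 and 89.3 to 204. Nearly all of these sums was Pecam1 alone, at 642 to 935, 365 to 457 and 80.6 to 203. None of the others had more than 18 counts in a group. The 9 T cell markers in the table were detected in every library and summed to 30264 to 32678 at day 0, 18654 to 21054 in TGFβ-iTreg and 21847 to 25749 in mTO-iTreg.

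The pattern of the set split its members rather than moving them together. S100a4 and S100a6 were lowest in mTO-iTreg, and S100a11 and Anxa2 were highest there. S100a13, Lgals1 and, less evenly, Lgals3 were highest in TGFβ-iTreg, and Anxa6 was lowest in TGFβ-iTreg. S100a10 was higher in most iTreg libraries than at day 0, and Anxa1 was near the detection limit in all 3 groups.

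**Figure D1:**
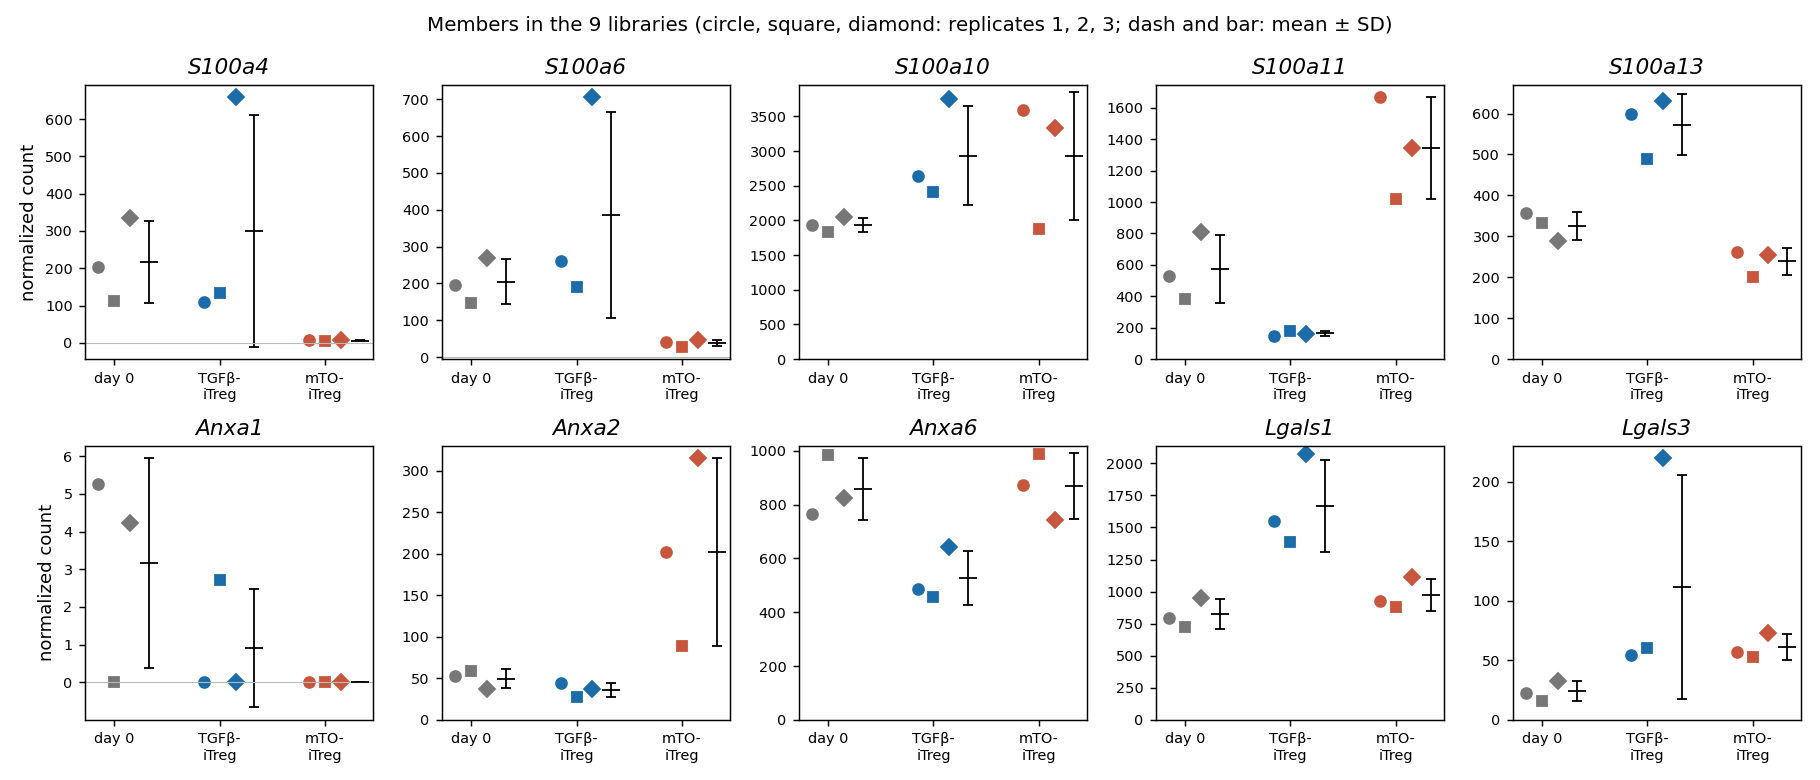
Normalized counts (linear axis, separate for each gene) of the 10 genes in the 9 libraries. Circles, squares and diamonds are replicates 1, 2 and 3, and the dash and bar give the mean and SD of 3 libraries. The mTO-iTreg libraries lie at 3.72 to 8.18 for S100a4, below all other libraries, and at 1019.8 to 1670.3 for S100a11, above all others.

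S100a4, a small calcium-binding protein known for binding non-muscle myosin IIA and promoting cell motility, had 204, 113 and 333 normalized counts in the 3 day 0 libraries. In TGFβ-iTreg it had 108, 134 and 658. In mTO-iTreg it had 8.18, 3.72 and 6.64, which rest on 28 counts in all, against 474 at day 0 and 1574 in TGFβ-iTreg. Every mTO-iTreg library was therefore below every other library, while day 0 and TGFβ-iTreg overlapped and 1 TGFβ-iTreg library stood far above the other 2. The means were 217 ± 111, 300.2 ± 310.2 and 6.18 ± 2.27 (SD, n = 3 each). The mTO-iTreg mean was 35.0-fold below day 0 and 48.6-fold below TGFβ-iTreg, and the fitted log2 differences, on the log2(value + 1) scale, were -4.84 and -4.95 (SE 0.61 for both). Without TGFβ-iTreg replicate 3 the latter ratio was 19.6-fold and its log2 difference -4.13. Between TGFβ-iTreg and day 0 the log2 difference was 0.11 ± 0.61 (SE) and turned to -0.71 without TGFβ-iTreg replicate 3 and to -0.29 without day 0 replicate 2.

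S100a6 (calcyclin), an S100 protein encoded near S100a4, had 197, 148 and 270.1 normalized counts at day 0. It had 261, 189 and 705 in TGFβ-iTreg. It had 41.6, 28.5 and 45.8 in mTO-iTreg. The order of the groups was that of S100a4 with a smaller difference: mTO-iTreg did not overlap with either other group, and TGFβ-iTreg replicate 3 again stood high. The mTO-iTreg mean of 38.7 ± 9.02 (SD, n = 3) was 5.30-fold below day 0 and 9.96-fold below TGFβ-iTreg, with log2 differences of -2.36 and -3.07 (SE 0.41). Without TGFβ-iTreg replicate 3 the ratio to TGFβ-iTreg was 5.82-fold (log2 -2.52). TGFβ-iTreg and day 0 overlapped at a log2 difference of 0.71 ± 0.41 (SE), which was 0.16 without TGFβ-iTreg replicate 3. In bulk RNA, fewer cells with a transcript and less of it in each cell cannot be told apart, here and for every gene that follows.

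S100a11 (calgizzarin), an S100 protein that docks onto annexin A1 and takes part in plasma membrane repair, ran the other way. It had 532, 382 and 808 normalized counts at day 0. The TGFβ-iTreg libraries lay in a narrow band, at 148, 182 and 161. It had 1670.3, 1019.8 and 1343 in mTO-iTreg. No 2 groups overlapped, and the order TGFβ-iTreg, day 0, mTO-iTreg held for every library. The TGFβ-iTreg mean was 3.51-fold below day 0 (log2 -1.74 ± 0.25 SE), the mTO-iTreg mean was 2.34-fold above day 0 (1.27 ± 0.25) and the iTreg groups differed 8.23-fold (3.01 ± 0.25). The processed pseudogenes, Gm12854 and Gm7665, share 99.0 and 98.7% of 297 bases with the end of the S100a11 transcript, so reads may have been lost to such copies, and none of them is in the table.

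Anxa2, the annexin that forms a tetramer with S100a10 and carries plasminogen at the cell surface, also peaked in the organoid co-culture. Its levels were 52.6, 59.1 and 36.9 normalized counts at day 0. In TGFβ-iTreg they were 44.3, 27.8 and 36.6. In mTO-iTreg they were 203, 88.7 and 316. The mTO-iTreg libraries spread widely among themselves but all lay above every other library, and day 0 overlapped with TGFβ-iTreg. The mTO-iTreg mean of 202 ± 113 (SD, n = 3) was 4.08-fold above day 0 (log2 1.85 ± 0.44 SE) and 5.59-fold above TGFβ-iTreg (2.29 ± 0.44). The difference between TGFβ-iTreg and day 0 was -0.44 ± 0.44 (SE).

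The 4 genes with the largest differences between the iTreg groups, 2 in each direction, are shown with the bases just before their gene starts, because the members went in opposite ways in the same libraries. Sequences are from RefSeq (GRCm38.p6), which had an entry for 7 of the 10 genes. All are on the plus strand, 5′ to 3′, and stop before the gene start of GENCODE M21. Capitals mark matches to the AP-1 motif TGANTCA, the site of the activation-induced Fos and Jun factors.
S100a4 (chr3:90603520-90603769): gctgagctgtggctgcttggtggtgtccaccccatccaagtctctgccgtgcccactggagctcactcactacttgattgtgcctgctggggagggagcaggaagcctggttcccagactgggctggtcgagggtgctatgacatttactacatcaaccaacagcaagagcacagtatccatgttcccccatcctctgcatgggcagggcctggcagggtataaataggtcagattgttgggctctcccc
S100a6 (chr3:90612644-90612881): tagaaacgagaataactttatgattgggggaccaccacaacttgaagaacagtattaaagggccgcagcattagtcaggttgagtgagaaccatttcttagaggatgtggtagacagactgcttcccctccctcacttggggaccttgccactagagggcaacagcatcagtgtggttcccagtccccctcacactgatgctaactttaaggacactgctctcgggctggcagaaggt
S100a11 (chr3:93520246-93520487): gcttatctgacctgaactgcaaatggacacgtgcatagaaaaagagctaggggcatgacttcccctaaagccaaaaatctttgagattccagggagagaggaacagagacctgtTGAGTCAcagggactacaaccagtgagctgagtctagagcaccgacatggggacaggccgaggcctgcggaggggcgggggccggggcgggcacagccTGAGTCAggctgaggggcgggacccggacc
Anxa2 (chr9:69453433-69453619): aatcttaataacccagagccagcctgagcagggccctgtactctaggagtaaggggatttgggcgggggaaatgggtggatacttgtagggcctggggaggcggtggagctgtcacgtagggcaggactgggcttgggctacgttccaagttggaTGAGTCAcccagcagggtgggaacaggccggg

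S100a11 held the AP-1 letters at 136 and 38 bases before its RefSeq start, and Anxa2 held them at 95 bases before it. The other 5 members with an entry had no match. Windows were taken before the RefSeq start, which lay 6109 bases from the GENCODE gene start for Lgals3 and 273 for Anxa1. Both of these windows are counted among the 7. On both strands of 250 bases, 6.75% of 32851 RefSeq promoters and 4.01% of the 8262 tested genes matched held the motif. TTCNNNGAA, the palindromic site of STAT5, which acts downstream of IL-2, was in none of the 7 and in 6.05% of the tested genes. The core letters CAGACA, bound by SMAD proteins downstream of TGFβ, were in 1 of the 7 (Lgals3) and in 13% of the tested genes. GGGCGG (SP and KLF factors) was in 3 of 7 against 60.2%, CACCC (KLF) in 4 of 7 against 56.6% and ACGTG (HIF) in 2 of 7 against 22.8%. CACCC and GGGCGG can fall within 1 KLF site. These are matches of letters in a short window, not binding sites.

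S100a10 (p11), the calcium-independent partner that annexin A2 stabilises, did not follow Anxa2. It had 1928, 1836 and 2045 normalized counts at day 0. In TGFβ-iTreg it had 2642, 2411 and 3754. In mTO-iTreg it had 3587, 1877 and 3329. TGFβ-iTreg lay above day 0 without overlap (1.52-fold, log2 0.57 ± 0.22 SE), whereas mTO-iTreg replicate 2 fell among the day 0 libraries (1.51-fold, 0.54 ± 0.22). The iTreg groups overlapped, with a difference of -0.03 ± 0.22 (SE). From TGFβ-iTreg to mTO-iTreg, Anxa2 was therefore 5.59-fold higher with S100a10 at a ratio of 0.998.

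S100a13, which takes part in the release of FGF1 and interleukin-1α without a signal peptide, had 356, 333 and 288 normalized counts at day 0. The TGFβ-iTreg libraries had 600.1, 489 and 630.4. The mTO-iTreg libraries had 262, 200.4 and 254. The groups did not overlap in any of the 3 comparisons. TGFβ-iTreg was 1.76-fold above day 0 (log2 0.81 ± 0.18 SE), mTO-iTreg was 1.36-fold below day 0 (-0.45 ± 0.18) and the iTreg groups differed 2.40-fold (-1.26 ± 0.18).

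Anxa6, a large annexin that scaffolds membrane cholesterol and actin, was, with S100a11, lowest in TGFβ-iTreg. It had 765, 987 and 824 normalized counts at day 0. It had 487, 455 and 644 in TGFβ-iTreg. It had 874, 989 and 744 in mTO-iTreg. TGFβ-iTreg was 1.62-fold below day 0 (log2 -0.71 ± 0.17 SE) and 1.64-fold below mTO-iTreg (the mTO-iTreg minus TGFβ-iTreg difference was 0.72 ± 0.17), without overlap in either case. Day 0 and mTO-iTreg overlapped, 0.02 ± 0.17 apart.

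Anxa1, the glucocorticoid-induced annexin, was barely present. It had 3, 0 and 4 counts in the day 0 libraries, 0, 4 and 0 in TGFβ-iTreg and 0 in all 3 mTO-iTreg libraries. Scaled to the depth of the group (CPM), this is 0.635 at day 0 (exact Poisson 95% interval 0.255 to 1.31) and 0.208 in TGFβ-iTreg (0.0566 to 0.532). The 0 counts of mTO-iTreg allow up to 0.129 CPM (3 counts over the group). These intervals cover counting error only, and no fold is given since the counts of single libraries lie at or near this floor.

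Lgals1 (galectin-1) had 797, 720.4 and 953 normalized counts at day 0. In TGFβ-iTreg it had 1547, 1388 and 2069.6. In mTO-iTreg it had 929, 880.3 and 1114. TGFβ-iTreg lay above both other groups without overlap, 2.03-fold above day 0 (log2 1.01 ± 0.17 SE), and mTO-iTreg was 1.71-fold below TGFβ-iTreg (-0.76 ± 0.17). The mTO-iTreg and day 0 libraries overlapped at 0.25 ± 0.17 (SE).

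Lgals3 (galectin-3), the chimera-type galectin that forms lattices on T cell receptors and CD45, had 22.8, 16.1 and 32.7 normalized counts at day 0. Levels in TGFβ-iTreg were 54.1, 60.4 and 219.9. Levels in mTO-iTreg were 57.3, 52.7 and 73.1. Both iTreg groups lay above day 0 without overlap, 4.67-fold (log2 1.92 ± 0.51 SE) and 2.56-fold (1.36 ± 0.51), and they overlapped with each other (-0.56 ± 0.51). Much of the TGFβ-iTreg mean comes from replicate 3, and without that library it was 2.40-fold above day 0 (log2 1.28), and the difference between the iTreg groups was 0.08.

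**Figure D2:**
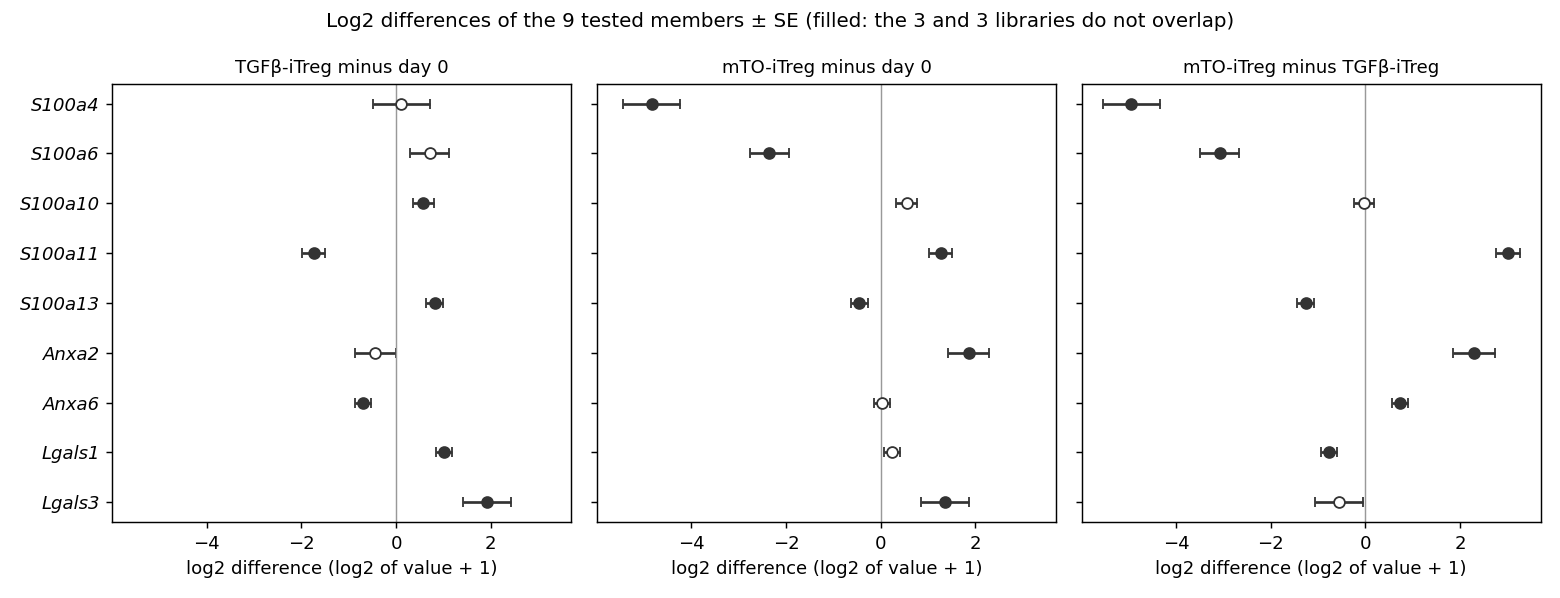
Fitted log2 difference (points) and SE (bars) on the log2(normalized count + 1) scale for the 9 tested genes in the 3 comparisons, with 3 libraries in each group. Filled points mark pairs of groups whose libraries do not overlap; S100a4 lies at -4.84 and S100a11 at 1.27 for mTO-iTreg minus day 0.

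Between TGFβ-iTreg and day 0, 4 of the 9 tested members were higher without overlap (S100a10, S100a13, Lgals1, Lgals3) and 2 were lower (S100a11, Anxa6), where 18.0 and 17.8% of all tested genes were. By limma at an adjusted p below 0.05, 3 members were called higher and 2 lower, against 9.78 and 8.80% of all genes. With a single library left out, the call of Lgals3 was lost without day 0 replicate 2 (log2 difference 1.68) or TGFβ-iTreg replicate 3 (1.28). That of Anxa6 was lost without TGFβ-iTreg replicate 2 (-0.61). Other alternatives that ended calls are given below. Between mTO-iTreg and day 0, 3 did not overlap on the high side (S100a11, Anxa2, Lgals3) and 3 on the low side (S100a4, S100a6, S100a13), beside 25.8 and 20.3% of all genes. There limma called 2 higher and 2 lower, beside 19.4 and 14.5%. Between the iTreg groups, 3 members were higher in mTO-iTreg (S100a11, Anxa2, Anxa6) and 4 lower (S100a4, S100a6, S100a13, Lgals1) by both measures, beside 25.9 and 18.7% of genes without overlap and 14.9 and 11.8% called. The median log2 difference of the 9 members was 0.57, 0.25 and -0.56 in these comparisons, beside -0.02, 0.09 and 0.13 over all genes. The members were chosen with these values known, so nothing is read from the shares. The 2 comparisons with day 0 share its libraries and the iTreg groups each enter 2 comparisons.

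Single libraries carried part of these values. TGFβ-iTreg replicate 3, the deepest library, was the highest of its group for 7 of the 9 members, whereas 32.2% of the 8810 genes with a mean of at least 20 were highest there. It exceeded the mean log2 level of the other 2 TGFβ-iTreg libraries by 2.44 for S100a4, by 1.93 for Lgals3 and by 1.66 for S100a6. These excesses lie at percentiles 99.5, 99.1 and 98.7 of those genes. S100a10 (0.57), Lgals1 (0.50) and Anxa6 (0.45) were less raised, and Anxa2 (0.06) and S100a11 (-0.03) were not apart. Day 0 replicate 3 was the highest of its group for 6 of the 9 members, against 33.6% of genes. That library also held the highest myeloid and B cell marker sums of the 9, and the part of those cells was not tested. In TGFβ-iTreg replicate 3 the myeloid sum was the lowest of its group, at 13.3. Among the mTO-iTreg libraries, Anxa2 was high in replicate 3 (1.23 over the other 2, percentile 98.3) and low in replicate 2 (-1.50, percentile 1.6). The epithelial marker sum was also highest in mTO-iTreg replicate 3, at 157 against 44.3 and 55.8. Epcam (89.0 against 21.1 and 34.1), Cdh1, Krt18 and Elf3 (48 counts against 0 and 0) were highest there. Muc2 had 1 count there, Krt7, Vil1 and Cldn4 had 0, and Lgals4 was level (9.55, 9.93 and 9.96). Elf3 also had 6 counts in TGFβ-iTreg replicate 1, where no organoids were. The epithelial sums of TGFβ-iTreg were 139 to 150, with Anxa2 at 27.8 to 44.3. The part of epithelial cells in the Anxa2 level was not tested.

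**Figure D3:**
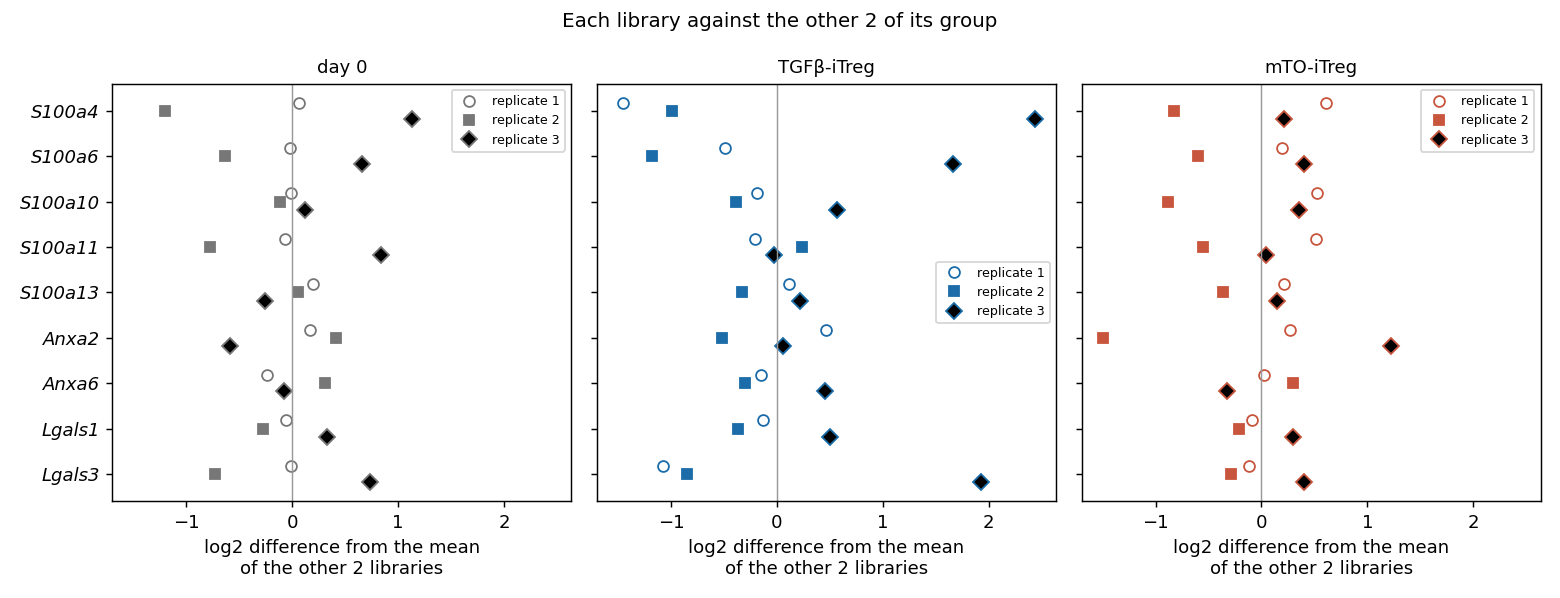
Level of each library minus the mean log2 level of the other 2 libraries of its group (log2 units) for the 9 tested members. TGFβ-iTreg replicate 3 reaches 2.44 for S100a4 and 1.66 for S100a6 and lies near 0 for S100a11.

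Of the 10 genes, 5 lie in the S100 cluster on chromosome 3 (GRCm38, GENCODE M21). S100a13 is at 3:90514435-90524581, S100a4 at 3:90603771-90606045 and S100a6 at 3:90612882-90624181. S100a11 is at 3:93520488-93526287 and S100a10 at 3:93555080-93564643, far from the first 3. All 5 are on the plus strand. The low level in mTO-iTreg thus belonged to S100a4 and S100a6, which have S100a5 between them, while S100a13 in the same stretch was lower by 1.36-fold only and S100a11 in the other stretch was higher. S100a1, on the minus strand at 3:90511034-90514392 and head to head with S100a13, was higher in mTO-iTreg than at day 0, as given below. S100a4 overlaps the read-through model Gm42674 on its own strand, with the same 3′ end, so reads of the 2 cannot be separated. The remaining members are dispersed: Anxa2 at 9:69453620-69491795 (plus), Anxa6 at 11:54979108-55033445 (minus), Anxa1 at 19:20373428-20390944 (minus), Lgals1 at 15:78926725-78930465 (plus) and Lgals3 at 14:47367751-47386160 (plus). How the authors' counting treated strand is not given in the sources used here.

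**Figure D4:**
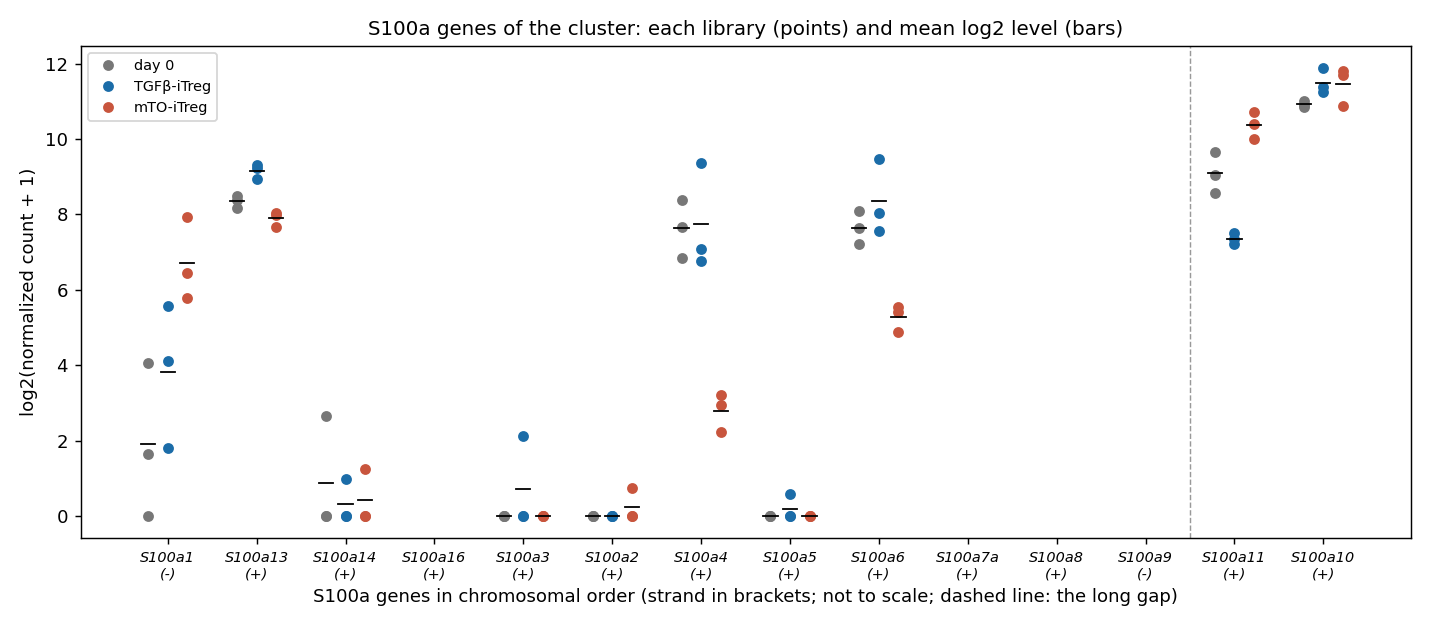
Levels of S100a genes of the chromosome 3 cluster in chromosomal order, as log2(normalized count + 1), with a point per library and a bar at each group mean. Genes without points were not in the deposited table. S100a4 and S100a6 are lowest in mTO-iTreg, and S100a1 and S100a11 are highest there.

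Nearness of pattern was measured as the Euclidean distance between log2 profiles over the 9 libraries after subtracting each gene's mean. S100a6 ranked 6 among 8809 genes nearest to S100a4, but S100a4 ranked 734 among those nearest to S100a6. Lgals1 ranked 85 among the genes nearest to Lgals3, and Lgals3 ranked 3504 among those nearest to Lgals1. Outside the set, Rasgrp3 (distance 2.71) and Crmp1 (2.98) were nearest to S100a4, whose own spread from a flat profile was 7.32. Trmt1l (1.21) and Atp1b1 (1.30) were nearest to S100a6, Letm2 (1.14) and Emc9 (1.15) to S100a11, and Kif23 (0.95) and Pxmp4 (0.99) to Anxa2. For the flatter genes the distances were smaller: Mmadhc (0.41) and Trp53inp1 (0.43) for S100a10, Eif3b (0.47) and Klhl6 (0.49) for S100a13, and Sec63 (0.30) and Gsk3b (0.38) for Anxa6. Txn1 (0.41) and Tbca (0.42) were nearest to Lgals1, and Ahcyl2 (1.10) and Rnf11 (1.14) to Lgals3. These are distances over 9 libraries that share 3 groups.

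The rest of the 3 families was listed separately: 29 further genes, of which 17 were in the table and 11 could be tested. Of these 11, limma called 1 higher and 0 lower in TGFβ-iTreg than at day 0 (2 higher and 0 lower at an unadjusted p below 0.05), 4 higher and 1 lower in mTO-iTreg than at day 0, and 2 higher and 1 lower in mTO-iTreg than in TGFβ-iTreg. The shares of all tested genes called were 9.78 and 8.80%, 19.4 and 14.5%, and 14.9 and 11.8%. Their median log2 differences were 0.09, 1.23 and 0.38, beside the values over all genes above.

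S100a1, an S100 protein best known from muscle calcium handling, had 15.8, 0 and 2.11 normalized counts at day 0. In TGFβ-iTreg it had 2.46, 16.3 and 46.9. In mTO-iTreg it had 53.9, 86.2 and 245. All mTO-iTreg libraries were above all others, and the mean was 21.5-fold above day 0 (log2 4.82 ± 1.07 SE, limma adjusted p = 0.0034), on 11 counts at day 0 and 587 in mTO-iTreg. The size of this ratio rested on single libraries: it was 122-fold without day 0 replicate 1, 14.3-fold without day 0 replicate 2 and 11.7-fold without mTO-iTreg replicate 3. TGFβ-iTreg replicate 3 again stood high in its group, by 2.63 in log2. The difference between mTO-iTreg and TGFβ-iTreg, 2.89 ± 1.07 (SE), was not called (limma adjusted p = 0.061). The nearest libraries of these groups were at 53.9 and 46.9.

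Anxa7 (synexin), an annexin of vesicle fusion, had 251, 209.7 and 185 normalized counts at day 0, 204, 258 and 202 in TGFβ-iTreg and 726, 511 and 785 in mTO-iTreg. It rose in mTO-iTreg with no overlap, 3.13-fold over day 0 (log2 1.63 ± 0.21 SE, limma adjusted p = 5.1e-05) and 3.04-fold over TGFβ-iTreg (1.59 ± 0.21, adjusted p = 0.0001). Anxa5, the annexin used to stain phosphatidylserine on dying cells, went down: 309, 344 and 277 at day 0, 229, 287 and 212 in TGFβ-iTreg and 156, 189 and 136 in mTO-iTreg. Its log2 difference between mTO-iTreg and day 0 was -0.95 ± 0.20 (SE, adjusted p = 0.0028). Against TGFβ-iTreg it was -0.59 ± 0.20 with an adjusted p of 0.046, a call that leaving out any 1 of 7 libraries ended; only without day 0 replicate 2 or mTO-iTreg replicate 2 was it kept, and the adjusted p was at most 0.17 over all alternatives.

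Anxa4, which binds epithelial and secretory membranes, had 17.5, 0 and 26.4 normalized counts at day 0, 88.5, 70.5 and 57.3 in TGFβ-iTreg and 73.0, 93.1 and 87.0 in mTO-iTreg. It was higher than day 0 in both iTreg groups, by 3.17 ± 0.91 (SE, limma adjusted p = 0.027) and 3.41 ± 0.91 (adjusted p = 0.01) in log2. Day 0 replicate 2 had no count, and without it these differences were 1.68 and 1.91. Without day 0 replicate 3 they were 4.06 and 4.30. The first of these calls was lost without TGFβ-iTreg replicate 1 (adjusted p = 0.08), replicate 2 (0.067) or replicate 3 (0.057). Lgals9 (galectin-9, a ligand of TIM-3) had 2346, 2406 and 2284 at day 0, 2408, 2113 and 2196 in TGFβ-iTreg and 2960.1, 2604 and 3202 in mTO-iTreg. It was above the other groups without overlap by only 0.31 ± 0.11 (SE, adjusted p = 0.046) and 0.38 ± 0.11 (adjusted p = 0.023). The call against day 0 was kept in 8 of 22 alternatives (adjusted p 0.00051 to 0.18) and was lost on leaving out any library but mTO-iTreg replicate 2. The call against TGFβ-iTreg was kept in 16 of 22 and was lost without TGFβ-iTreg replicate 2 (0.08) or 3 (0.061) or mTO-iTreg replicate 1 (0.065) or 3 (0.09). Anxa3, Anxa11, Lgals4, Lgals7, Lgals8 and Lgalsl passed in no comparison.

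**Figure D5:**
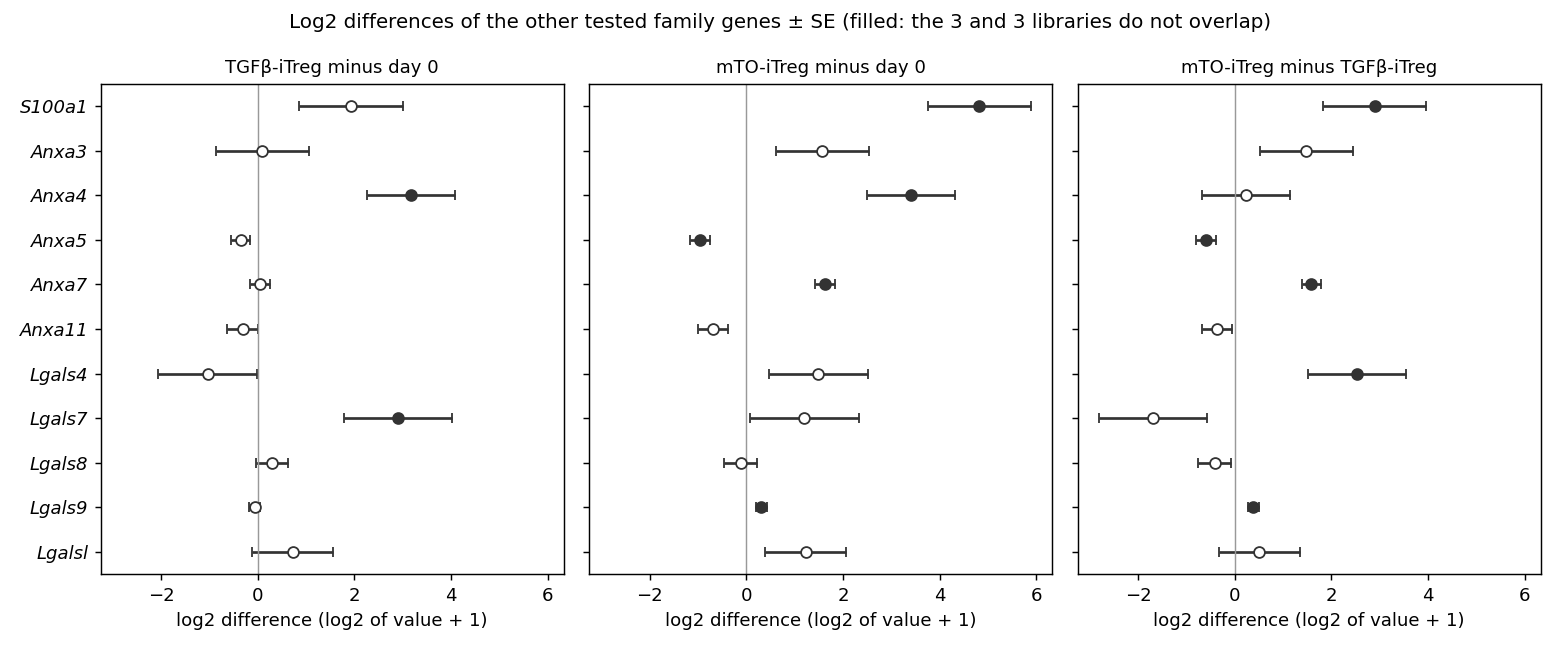
Fitted log2 difference (points) and SE (bars) for the 11 other S100, annexin and galectin genes that could be tested, in the 3 comparisons of 3 libraries each. S100a1 reaches 4.82 and Anxa7 1.63 for mTO-iTreg minus day 0, and Anxa5 lies at -0.95.

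Proteins that the members bind, or that bind them at the cell surface, were listed as 17 genes, of which 12 could be tested. Limma called 1 higher and 4 lower in TGFβ-iTreg than at day 0, 1 higher and 3 lower in mTO-iTreg than at day 0, and 3 higher and 3 lower in mTO-iTreg than in TGFβ-iTreg. Of all tested genes 9.78 and 8.80%, 19.4 and 14.5%, and 14.9 and 11.8% were called higher and lower in these comparisons. Myh9, the non-muscle myosin heavy chain that S100A4 binds, had 1805, 1876 and 1861 normalized counts at day 0, 1326, 1559.8 and 1228 in TGFβ-iTreg and 840.3, 964 and 1029 in mTO-iTreg. It was lowest where S100a4 was, with a log2 difference from day 0 of -0.97 ± 0.13 (SE, limma adjusted p = 7.5e-05). Spn (CD43), a mucin-type ligand of galectin-1, had 1370.2, 1115.5 and 1529.7 at day 0, 1916, 1573 and 1928 in TGFβ-iTreg and 416, 474 and 355 in mTO-iTreg, and its log2 difference in mTO-iTreg was -1.68 against day 0 (adjusted p = 4.3e-06) and -2.12 against TGFβ-iTreg (adjusted p = 1.5e-06).

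Ptprc (CD45), another galectin ligand on T cells, had 3535, 3322 and 3168 normalized counts at day 0, 1697, 1529 and 1446 in TGFβ-iTreg and 2969, 2870.3 and 3161 in mTO-iTreg. It was lower in TGFβ-iTreg than at day 0 by a log2 difference of -1.10 ± 0.11 (SE, limma adjusted p = 2.1e-05) and higher in mTO-iTreg than in TGFβ-iTreg by 0.95 (adjusted p = 3.7e-05). Lgals3bp, a secreted galectin-3 binder, had 829.9, 664 and 648 at day 0, 309.9, 208 and 219 in TGFβ-iTreg and 407, 639.6 and 464 in mTO-iTreg, with -1.55 (adjusted p = 0.00022) and 1.03 (adjusted p = 0.0027) for the same comparisons. Plscr1, a phospholipid scramblase, had 10.5, 2.69 and 12.7 at day 0, 157, 142 and 116 in TGFβ-iTreg and 31.4, 30.4 and 51.1 in mTO-iTreg. It rose by 4.05 ± 0.53 (SE) in TGFβ-iTreg (adjusted p = 0.00018) and by 2.17 in mTO-iTreg (adjusted p = 0.0061). Its difference between the iTreg groups, -1.88 (adjusted p = 0.018), was not called without TGFβ-iTreg replicate 1 (0.062) or 2 (0.059) or mTO-iTreg replicate 1 (0.056) or 2 (0.055). Cd44 was higher in mTO-iTreg than in TGFβ-iTreg by 1.09 ± 0.25 (SE, adjusted p = 0.0052). Its difference of -0.93 between TGFβ-iTreg and day 0 (adjusted p = 0.018) was lost without day 0 replicate 1 (0.057) or 3 (0.069) or TGFβ-iTreg replicate 3 (0.077). Cacybp, the calcyclin binding protein, had a log2 difference of -0.75 between mTO-iTreg and day 0 (adjusted p = 0.046) that was called in 7 of 22 alternatives. It was lost without day 0 replicate 2 (0.2) or 3 (0.078), TGFβ-iTreg replicate 3 (0.054) or any of mTO-iTreg replicates 1 (0.055), 2 (0.068) and 3 (0.16).

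Genes of the N- and O-glycan steps that make, branch or cap galectin ligands (galactosyl-, GlcNAc- and sialyltransferases, 3 mannosidases and the C1galt1c1 chaperone) were listed as 17 genes, of which 16 were tested. Limma called 2 higher and 4 lower in TGFβ-iTreg than at day 0, 2 higher and 6 lower in mTO-iTreg than at day 0, and 3 higher and 5 lower in mTO-iTreg than in TGFβ-iTreg, beside 9.78 and 8.80%, 19.4 and 14.5%, and 14.9 and 11.8% of all tested genes. B4galt1, which adds the galactose of N-acetyllactosamine, had 611, 387 and 682 normalized counts at day 0, 1449, 1449 and 2328 in TGFβ-iTreg and 371, 570.1 and 310.2 in mTO-iTreg. It rose in TGFβ-iTreg by 1.64 ± 0.26 in log2 (SE, limma adjusted p = 0.00077) and was lower by -2.07 in mTO-iTreg than in TGFβ-iTreg (adjusted p = 7.8e-05). St3gal1, which caps core-1 O-glycans with sialic acid, had 1453, 1065 and 1077 at day 0, 197, 201 and 155 in TGFβ-iTreg and 690.2, 333 and 543 in mTO-iTreg. It fell in both iTreg groups, with log2 differences from day 0 of -2.69 ± 0.24 (SE, adjusted p = 1.1e-05) and -1.24 (adjusted p = 0.0012). St6gal1, whose α2,6-linked sialic acid blocks galectin-1 binding, fell from a mean of 955 ± 226 at day 0 to 367 ± 45.4 in mTO-iTreg (SD, n = 3 each), -1.36 ± 0.19 in log2 (SE, limma adjusted p = 0.00013).

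Mgat4a, an N-glycan branching enzyme, had 31.6, 37.6 and 58.0 normalized counts at day 0, 22.1, 17.6 and 29.1 in TGFβ-iTreg and 105, 116 and 89.7 in mTO-iTreg, and was higher in mTO-iTreg than in TGFβ-iTreg by 2.15 ± 0.39 (SE, limma adjusted p = 0.0013). Its difference from day 0, 1.31 (adjusted p = 0.02), was lost without day 0 replicate 1 (0.062) or mTO-iTreg replicate 1 (0.058) or 2 (0.065). C1galt1c1, the chaperone of the core-1 galactosyltransferase, was lower in mTO-iTreg than at day 0 by -1.74 (adjusted p = 0.013). Against TGFβ-iTreg (adjusted p = 0.046) its call was kept in 11 of 22 alternatives and was lost on leaving out any library but day 0 replicate 2 and mTO-iTreg replicate 3 (adjusted p up to 0.15). C1galt1, the core-1 galactosyltransferase itself, was lower in TGFβ-iTreg than at day 0 by -1.13 (adjusted p = 0.046), a call kept in 7 of 22 alternatives. It was lost without day 0 replicate 1 (0.11) or 2 (0.14), TGFβ-iTreg replicate 1 (0.15) or mTO-iTreg replicate 2 (0.057) or 3 (0.052). St3gal6, a sialyltransferase, was lower than day 0 in TGFβ-iTreg by -2.31 (adjusted p = 0.016), which was lost without day 0 replicate 1 (0.057) or TGFβ-iTreg replicate 3 (0.058). In mTO-iTreg its difference from day 0 was -1.70 (adjusted p = 0.041). That call was lost without day 0 replicate 1 (0.11) or 3 (0.1), TGFβ-iTreg replicate 2 (0.05) or mTO-iTreg replicate 1 (0.055) or 3 (0.16).

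Genes of calcium-dependent membrane repair, the process in which annexins and S100 proteins act with calpains and the ESCRT machinery, were listed as 19 genes, of which 16 were tested. Limma called 3 higher and 1 lower in TGFβ-iTreg than at day 0 and 1 higher and 6 lower in mTO-iTreg than at day 0, beside 9.78 and 8.80% and 19.4 and 14.5% of all tested genes. In mTO-iTreg against TGFβ-iTreg it called 0 higher and 6 lower (0 higher and 9 lower at an unadjusted p below 0.05), beside 14.9 and 11.8% of all tested genes. Capns1, the calpain small subunit, fell from 5021 ± 242 in TGFβ-iTreg to 2791 ± 332 in mTO-iTreg (SD, n = 3 each), -0.85 in log2 (limma adjusted p = 0.00019). Cpne1 (copine-1), Capn1 (calpain-1) and Vps4b (an ESCRT ATPase) were lower in mTO-iTreg than at day 0 by -0.97, -0.97 and -0.85 (adjusted p = 0.004, 0.007 and 0.00052). Chmp1a, an ESCRT-III subunit, was lower in mTO-iTreg than in TGFβ-iTreg by -1.25 (adjusted p = 0.002). The 3 genes called higher in TGFβ-iTreg than at day 0 were Pdcd6 (0.68), Chmp4b (0.64) and Myof, each at an adjusted p of 0.024, and these calls were kept in 15 of 22, 14 of 22 and 13 of 17 alternatives. Pdcd6 lost it without day 0 replicate 1 (0.063) or 2 (0.06) or TGFβ-iTreg replicate 1 (0.1) or 2 (0.059). Chmp4b lost it without day 0 replicate 1 (0.051) or 2 (0.098) or TGFβ-iTreg replicate 1 (0.072), 2 (0.059) or 3 (0.055). Myof lost it without day 0 replicate 1 (0.06), 2 (0.059) or 3 (0.052). Myof (myoferlin) had 0 counts at day 0, 7.38, 6.78 and 20.3 normalized counts in TGFβ-iTreg and 0, 3.10 and 0 in mTO-iTreg. Chmp4b was also the 1 gene called higher in mTO-iTreg than at day 0 (0.67, limma adjusted p = 0.0098). Its iTreg groups were 0.04 apart and overlapped.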

How the data were processed

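The authors deposited 1 table of normalized counts per gene (size-factor scaled with DESeq2 after alignment with BWA to mm10, per the submitters' processing notes; versions, annotation and strand handling: not given in the sources used here). Its numbers use decimal commas, so this other unit was read as deposited, and 100% of the deposited values were whole multiples, within 0.1, of what 1 count is worth in each library, which gave the depths. Log2(value + 1) was fitted with limma 3.58.1 (R 4.3.3): 3 group means, variance trend, genes with at least 5 in at least 3 of 9 libraries, Benjamini-Hochberg adjustment over 10983 genes, threshold 0.05. The fit was run on simulated counts with planted differences and the same spread setting for all genes. That run cannot show how the fit behaves at the spread of these libraries. The members and lists were chosen with earlier results of these data known, and members get no p-value. Neighbour lists are named by up to 4 called genes of largest log2 difference per comparison, and other family genes wherever called. Of these, 1 gene of the membrane repair list is not reported here by name. Libraries with the same replicate number shared little deviation from their group means (correlation -0.05 to 0.06). Those with different numbers had -0.08 to 0.05. Such low values cannot exclude pairing, which the labels do not give. Replicates differed beyond sampling noise (chi-square per degree of freedom 7.38 to 25.7). Sequence copies were sought with blastn 2.17.0 (at least 90% identity over 100 bases of the last 500). Alternatives changed the pseudocount, filter, scaling, fit, or libraries; those scaled without mitochondrial genes and Rn45s, fitted with limma-voom on recovered counts, or without the 2 shallowest libraries were chosen after seeing the data.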

Additional observations from a re-analysis of the deposited data

How the results depend on the processing

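The alternatives refit the same libraries, and the members were chosen with their results known. Kept calls of members therefore describe dependence on processing only and are no further support. Under the alternatives run, no called difference of a member turned direction. The calls of S100a4, S100a6, S100a11 and Anxa2 in mTO-iTreg against day 0, and all 7 between the iTreg groups, were kept in 22 of 22. Others moved. In TGFβ-iTreg against day 0, the calls of Lgals3 and Anxa6 were each kept in 17 of 22 alternatives. Lgals3 was not called without day 0 replicate 2 (log2 1.68) or TGFβ-iTreg replicate 3 (1.28). Nor was it called in limma with 2 groups, without a variance trend or in limma-voom. Anxa6 was not called with equal totals or when scaled without mitochondrial genes and Rn45s (-0.46 in both). It was also not called without a trend, TGFβ-iTreg replicate 2 (-0.61) or the 2 shallowest libraries (-0.55). S100a13 was not called without the 2 shallowest libraries (0.79). S100a10 was called there in 5 of 22, with equal totals (0.82) among them. In mTO-iTreg against day 0, the uncalled Lgals3, S100a10, S100a13 and Lgals1 were called in 8, 6, 2 and 1 of 22. The count of members called in TGFβ-iTreg against day 0 (5) was 3 without a variance trend and 3 without the shallowest libraries. In mTO-iTreg against day 0 the count (4) was 7 when scaled without mitochondrial genes and Rn45s. Leaving out 1 library gave 4 to 6, 4 to 6 and 7 in the 3 comparisons. Of the other family genes, the 1 call in TGFβ-iTreg against day 0 was 0 in limma with 2 groups, 0 without a trend (2 genes at an unadjusted p below 0.05 in both) and 0 in limma-voom (1 gene), and 0 to 1 with a library left out; the 3 calls between the iTreg groups were 1 without a trend and 1 to 5. In TGFβ-iTreg against day 0, the calls of partners (5) were 3 without a trend and 3 to 5; of glycosylation genes (6), 3 without a trend, 3 without the shallowest libraries and 2 to 6; of membrane repair genes (4), 7 with equal totals, 7 without mitochondrial genes and Rn45s, 2 without a trend, 1 in limma-voom, 1 without the shallowest libraries and 1 to 4. With the replicate number as a block, members had 6, 6 and 7 calls (whether the numbers pair libraries is not known). The planned edgeR and DESeq2 fits were not run, and limma-voom on the recovered counts took their place. Anxa1 and S100a4 in mTO-iTreg rest on few counts, so depth limits them.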

Other observations

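Family genes below the level needed for a test were nearly silent. Anxa9 had 0 counts at day 0 and in TGFβ-iTreg and 6, 8 and 9 counts in the mTO-iTreg libraries, 0.992 CPM (exact Poisson 95% interval 0.629 to 1.49, counting error only), where the 0 counts allow up to 0.272 at day 0 and 0.156 in TGFβ-iTreg (3 counts over the group). S100a3 and S100a5 had 5 counts and 1 count, all in TGFβ-iTreg, S100b had 1 count there, S100z had 2 counts at day 0, S100a14 had 3, 2 and 2 counts in the 3 groups, and S100a2, looked up after the values were seen, had 1 count in mTO-iTreg.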
